A study of Arabidopsis thaliana with 20 samples.

Results

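The genes described here are 50 nuclear genes of the photosynthetic apparatus among the 33602 genes of the count files. They were listed by name, and the rule uses no measured value, though earlier results of these data were known when the list was made. They comprise the light-harvesting proteins of photosystem I (LHCA1 to LHCA6, 6 genes) and of photosystem II (LHCB1 to LHCB6, 14 genes), the nuclear subunits of the photosystem I core (PSA, 12 genes) and of photosystem II (PSB, 10 genes), 3 genes of electron carriers (PETC, PETE1 and PETE2), and 5 genes of carbon fixation, the small subunits of Rubisco (RBCS1A, RBCS1B, RBCS2B and RBCS3B) with Rubisco activase (RCA). All 50 passed the filter on low counts that left 19954 genes to test. RNA was sequenced from rosettes of Arabidopsis thaliana at an age of 3 weeks, after 2 h in 350 ppb ozone or without ozone. The plants were of 3 genotypes. Col-0 is the wild type and had 4 control and 4 ozone libraries. The wrky25 wrky33 plants are mutant in the genes of the transcription factors WRKY25 and WRKY33, and the wrky75 plants in the gene of WRKY75, with 3 control and 3 ozone libraries each. Every library was a pool of 5 rosettes, and where each gene is disrupted is not given in the sources used here.

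Antenna proteins bind chlorophyll and pass the energy of absorbed light to the photosystems. Photosystem II splits water, and electrons then flow through plastoquinone, the cytochrome b6f complex, which contains the Rieske protein encoded by PETC, and the copper protein plastocyanin, encoded by PETE1 and PETE2, to photosystem I. Rubisco fixes carbon dioxide, and RCA keeps its active sites free of inhibitory sugar phosphates. The reaction-centre proteins and the large subunit of Rubisco are encoded in the plastid, whereas the proteins described here are made in the cytosol and imported. In leaves these transcripts are among the most abundant of the nucleus and are raised by light.

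Total counts ran from 20486137 to 20771667 per library, so depth hardly differed between groups. The 50 genes took 16.62% to 21.21% of all counts in the 10 control libraries and 6.59% to 11.24% in the 10 ozone libraries. Plastid-encoded genes took 0.023% to 0.051%, and are not analysed here. Levels are given in CPM, the count of a gene relative to its library's total after scaling by TMM factors, and adjusted p-values are from edgeR's quasi-likelihood test with Benjamini-Hochberg adjustment over all genes tested, unless another tool is named. Changes are log2 fold changes of ozone against control. A gene was called where the adjusted p was under 0.05. The labels call the pools biological replicates, and the p-values measure the spread between these pools. Transcripts of the mutated genes were present in the libraries labelled as mutants, so they do not check the labels. WRKY75 held 28.0 to 72.8 CPM under ozone in the libraries labelled wrky75, 48.0 to 129 CPM in Col-0 and 18.8 to 25.4 CPM in those labelled wrky25 wrky33, and at most 0.734 CPM in any control library. In the libraries labelled wrky25 wrky33, WRKY25 held 3.14 to 5.55 CPM in control (8.38 to 16.1 in Col-0) and 176 to 223 CPM under ozone (104 to 144 in Col-0), below Col-0 in control and above it under ozone without overlap. WRKY33 held 12.6 to 14.2 CPM there in control (14.8 to 23.8 in Col-0) and 224 to 426 CPM under ozone (320.0 to 730.0 in Col-0). Ozone replicate 3 was the lowest library of its group for 50 of the 50 genes in Col-0, for 40 in wrky25 wrky33 and for 44 in wrky75, and ozone replicate 1 was the highest for 48 in each mutant. In Col-0, ozone replicate 4 was the highest for 33 genes and control replicate 4 the lowest for 30.

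All 50 genes were lower under ozone, in every complex and in each of the 3 genotypes, and 0 were higher (33.3% of all genes tested were called higher in Col-0, 31.1% in wrky25 wrky33 and 32% in wrky75). The call of a lower level was made for 50 of 50 in Col-0, where it was made for 36.4% of all genes tested, for 50 of 50 in wrky25 wrky33 (33.9% of all genes) and for 50 of 50 in wrky75 (36.1%). The median log2 fold change of the 50 was −1.03 in Col-0, −1.15 in wrky25 wrky33 and −1.29 in wrky75, against medians of −0.08, −0.09 and −0.11 over all genes tested. In Col-0 26 genes fell to at most 50 percent of their control level by the fitted fold change (14.4% of all genes tested), in wrky25 wrky33 35 (13.9%) and in wrky75 39 (17% of all). All ozone libraries lay below all control libraries for 44 of 50 genes in Col-0 (30% of all genes tested) and for 49 of 50 in wrky25 wrky33 and in wrky75 (38.2% and 38.8%). The groups overlapped in Col-0 for LHCB1.3, LHCB4.1, LHCB4.3, PSAE2, RBCS1B and RBCS3B, and in each mutant for LHCB4.3. Col-0 had 4 libraries per group and the mutants 3. For all of the Col-0 genes but LHCB4.3, the overlap came from control replicate 4, a number that the mutants lack. Replicates 1 to 3 of Col-0 did not overlap for those genes. With upper-quartile scaling the median of all genes moved by −0.20 in Col-0, −0.18 in wrky25 wrky33 and −0.19 in wrky75, and lower levels made up 62.8%, 62.4% and 62.0% of all calls in place of 52.3%, 52.2% and 53.0%. Relative to the median of all genes, the median of the 50 was −0.96 with that scaling and −0.95 with TMM in Col-0. In a bulk sample, fewer cells of a type and less RNA per cell cannot be told apart.

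Summed over each complex, both antennae kept a smaller part of their control level than the nuclear core subunits in each genotype. Core here stands for the listed PSA and PSB genes, PSBS among them, without the plastid-encoded reaction-centre proteins. In Col-0 the mean of the ozone libraries was 45.9% of the control mean for the photosystem II antenna and 47.2% for the photosystem I antenna. It was 52.2% for the photosystem II core, 53.1% for the photosystem I core, 51.4% for Rubisco with its activase and 57.9% for the electron carriers. In wrky25 wrky33 the order ran from 41.0% for the photosystem II antenna to 51.4% for the electron carriers, and in wrky75 from 36.6% to 49.97% for the same complexes. These sums carry no test, and the complexes hold different numbers of genes. The median log2 fold changes of single genes in Col-0 were −1.19 (photosystem II antenna), −1.11 (photosystem I antenna), −1.11 (Rubisco and activase), −0.97 (photosystem II core), −0.92 (electron carriers) and −0.82 (photosystem I core).

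**Figure D1:**
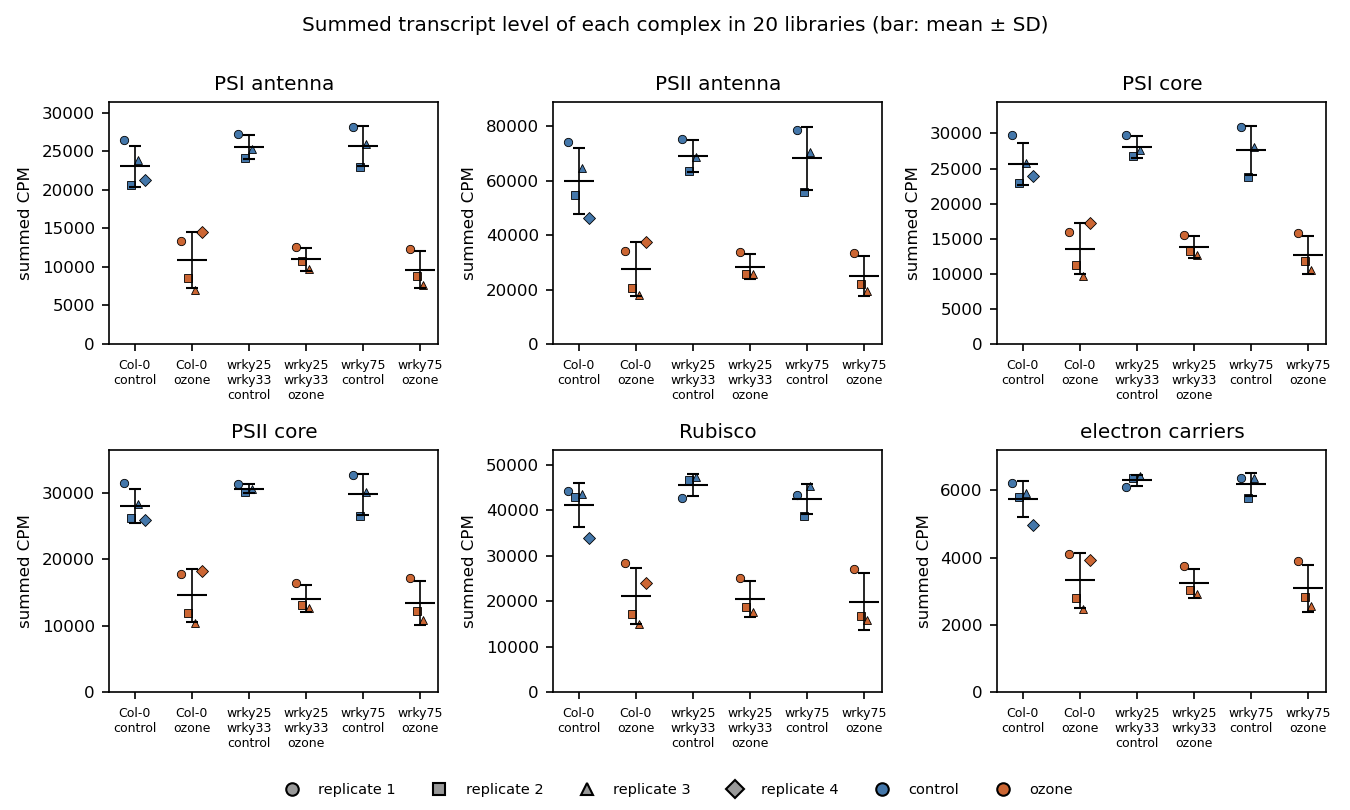
Summed level of each complex (CPM, vertical axis from 0) in the 20 libraries, by genotype and treatment. Marker shapes give the replicate number, blue is control and orange ozone, and bars give the mean ± SD of 4 (Col-0) or 3 (mutants) libraries. For all 6 complexes every ozone library lay below every control library of its genotype, and replicates 1 and 4 were the upper ozone libraries of Col-0.

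The balance of antenna transcripts and those of the nuclear core subunits within photosystem I differed between control and ozone libraries. The ratio of summed antenna to summed core transcripts was 0.888 to 0.925 in the 4 control libraries of Col-0 and 0.723 to 0.842 in its 4 ozone libraries. It was 0.904 to 0.917 against 0.762 to 0.809 in wrky25 wrky33, and 0.911 to 0.963 against 0.733 to 0.781 in wrky75. Control and ozone libraries did not overlap in any genotype. For photosystem II the ratio was 1.79 to 2.36 in control and 1.72 to 2.07 under ozone in Col-0, and these ranges overlapped. The lowest control and the highest ozone value of Col-0 were both those of replicate 4, a number that the mutants lack. Replicates 1 to 3 of Col-0 did not overlap. In the mutants it was 2.12 to 2.41 against 1.96 to 2.07 and 2.104 to 2.41 against 1.78 to 1.95, without overlap. The ratio of the photosystem II core to the photosystem I core was 1.055 to 1.138 in control and 1.053 to 1.111 under ozone in Col-0, and 1.057 to 1.114 against 1.033 to 1.085 in wrky75, with overlap in both. In wrky25 wrky33 it was 1.050 to 1.123 in control and 0.994 to 1.049 under ozone, so that the groups nearly touched. The ratios carry no test.

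**Figure D2:**
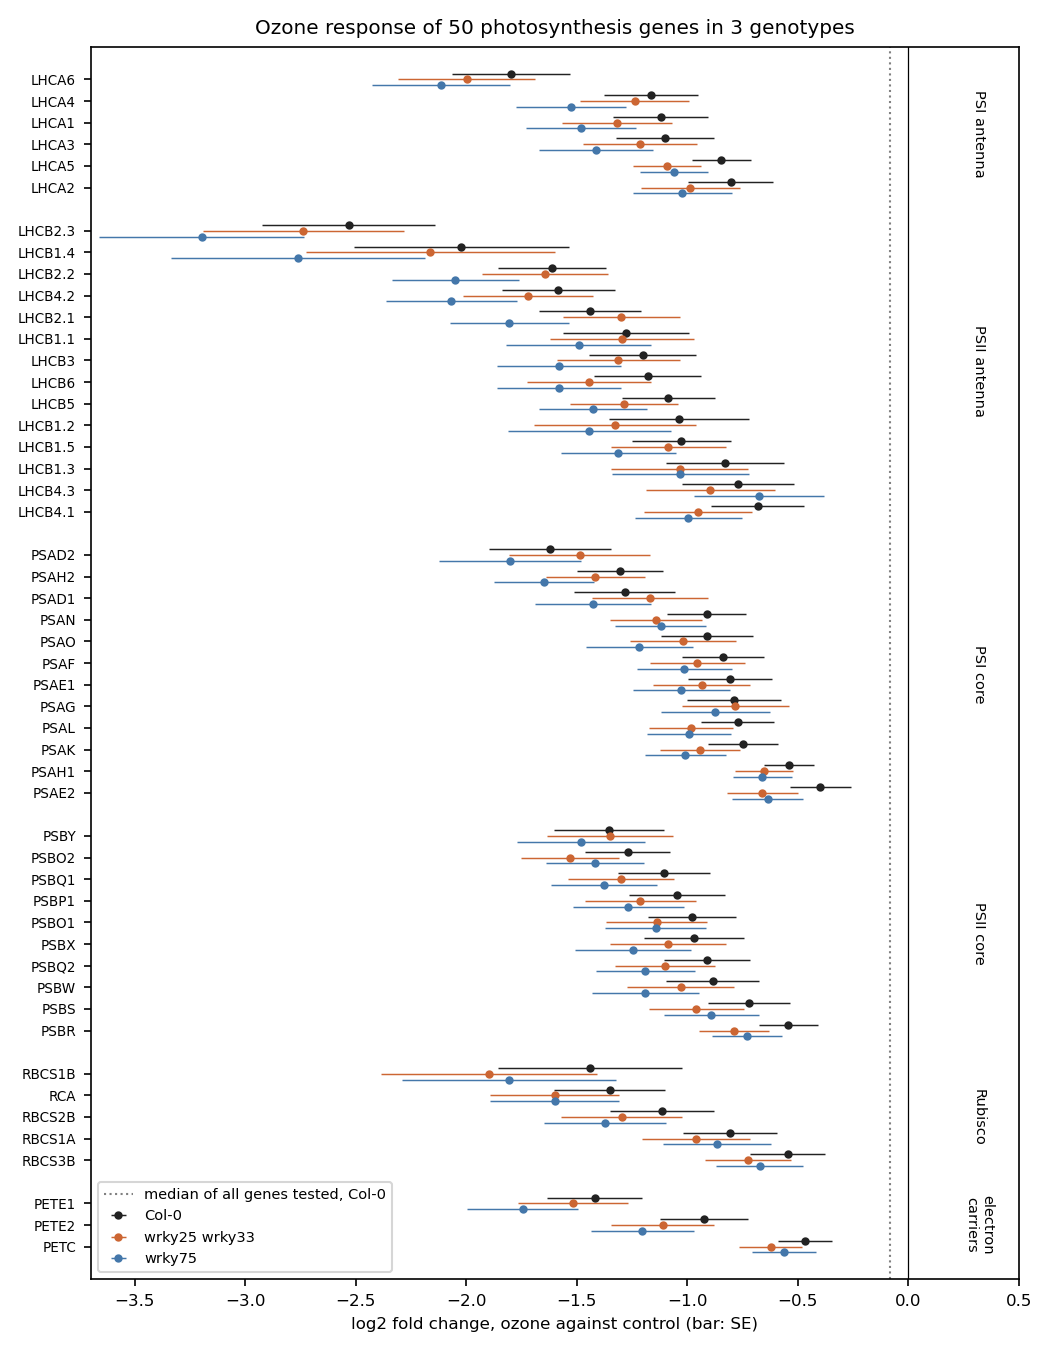
Log2 fold change of each of the 50 genes, ozone against control, in Col-0 (black), wrky25 wrky33 (orange) and wrky75 (blue), with bars of 1 SE from edgeR, grouped by complex and ordered by the change in Col-0. The dotted line is the median of all genes tested in Col-0 (−0.08), and all points lie to its left, with LHCB2.3 the lowest in every genotype.

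In the photosystem I antenna, LHCA4 had the highest level per length in Col-0 control (6447 CPM per kb of exon). LHCA1 and LHCA4 form a pair of proteins at the core, as do LHCA2 and LHCA3. LHCA4 measured 9110.4, 7576, 8624 and 7339 CPM in the unexposed Col-0 libraries, and 4418, 2859, 2240.1 and 5064 CPM after ozone. The highest ozone library was below the lowest control library, and the log2 fold change was −1.16 ± 0.21 (SE; adjusted p = 9.8e-05). LHCA4 in wrky25 wrky33 measured 9464, 8813 and 9028 CPM without ozone and 4338, 3897 and 3342 CPM with it, and in wrky75 9862, 8816 and 9342 CPM without and 4035, 3081 and 2610.5 CPM with it. The log2 fold change of LHCA4 was −1.24 ± 0.25 (SE; adjusted p = 0.000269) in wrky25 wrky33 and −1.53 ± 0.25 (SE; adjusted p = 3.02e-05) in wrky75.

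LHCA6, a minor antenna protein that takes part in joining photosystem I to the chloroplast NADH dehydrogenase-like complex, changed most in this antenna in each genotype. Levels of LHCA6 in Col-0 were 211, 192, 206 and 167 CPM (no ozone) and 81.8, 40.8, 33.7 and 67.4 CPM (ozone). No groups overlapped, and LHCA6 in wrky25 wrky33 measured 198, 232 and 235 CPM without ozone and 73.7, 51.9 and 40.9 CPM with it, and in wrky75 214, 188 and 225 CPM without and 73.1, 36.0 and 35.7 CPM with it. LHCA6 changed on the log2 scale by −1.80 ± 0.27 (SE; adjusted p = 1.01e-05) in Col-0, −1.998 ± 0.31 (SE; adjusted p = 2.17e-05) in wrky25 wrky33 and −2.11 ± 0.31 (SE; adjusted p = 1.03e-05) in wrky75. LHCA5, which has the same role, was at 166 CPM per kb in Col-0 control against 186 CPM per kb of LHCA6, and changed on the log2 scale by −0.85 ± 0.13 (SE; adjusted p = 1.97e-05). LHCA2 had the smallest change, −0.80 ± 0.19 (SE; adjusted p = 0.00119), from 3679.5, 2790.1, 3240.4 and 3041 CPM to 2192, 1477, 1277 and 2361 CPM. LHCA1 and LHCA3 lay between, at −1.12 ± 0.21 and −1.10 ± 0.22 (SE) in Col-0.

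The major antenna of photosystem II is a trimer of LHCB1, LHCB2 and LHCB3 proteins, and LHCB4, LHCB5 and LHCB6 are single proteins between trimer and core. LHCB1.3 (AT1G29930, chromosome 1, 10478005 to 10479048, plus strand, TAIR10) had the highest level per length of this antenna, 9595 CPM per kb in Col-0 control. In Col-0, LHCB1.3 held 13297, 8382, 11053 and 7335 CPM without ozone and 6863, 4109, 3938 and 7655 CPM with ozone. The highest ozone library, replicate 4, lay above the lowest control library, also replicate 4, and the log2 fold change was −0.83 ± 0.27 (SE; adjusted p = 0.0103). In the mutants LHCB1.3 in wrky25 wrky33 measured 13253, 9700.1 and 11489 CPM without ozone and 6919, 4566 and 5338 CPM with it, and in wrky75 13799, 8155 and 11621 CPM without and 7432, 4581 and 4406 CPM with it, without overlap.

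LHCB2.3 (AT3G27690, chromosome 3, 10255947 to 10257011, plus strand) changed most of all 50 genes in each genotype. LHCB2.3 measured 2188, 1498, 1783 and 1859 CPM in the unexposed Col-0 libraries, and 429, 163, 134 and 540.2 CPM after ozone. Ozone replicates 2 and 3 were the lowest, and no ozone library came near the control libraries. LHCB2.3 in wrky25 wrky33 measured 2316, 2002 and 2174 CPM without ozone and 427, 292 and 256 CPM with it, and in wrky75 2488, 1787 and 2286 CPM without and 396, 163 and 156 CPM with it. LHCB2.3 changed on the log2 scale by −2.53 ± 0.39 (SE; adjusted p = 1.49e-05) in Col-0, −2.74 ± 0.46 (SE; adjusted p = 4.36e-05) in wrky25 wrky33 and −3.20 ± 0.46 (SE; adjusted p = 8.38e-06) in wrky75. LHCB1.4 followed, with 2487, 811, 1308 and 986 CPM unexposed and 425, 192, 149 and 610.5 CPM after ozone in Col-0. Its control libraries were widely spread, with replicate 1 the highest in all 3 genotypes, and LHCB1.4 changed on the log2 scale by −2.02 ± 0.48 (SE; adjusted p = 0.0012) in Col-0, −2.16 ± 0.56 (SE; adjusted p = 0.0026) in wrky25 wrky33 and −2.76 ± 0.58 (SE; adjusted p = 0.000365) in wrky75. LHCB1.4 in wrky25 wrky33 measured 2769.6, 1146 and 1408 CPM without ozone and 514, 316 and 358 CPM with it, and in wrky75 2939, 1066 and 1710.4 CPM without and 455, 206 and 182 CPM with it.

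LHCB4.3, also called LHCB8, was the lowest of the 50 genes per length in Col-0 control (143 CPM per kb) and had overlapping groups in all genotypes. Levels of LHCB4.3 in Col-0 were 130.5, 261, 206 and 201 CPM (no ozone) and 138, 110.2, 86.8 and 133 CPM (ozone). LHCB4.3 in wrky25 wrky33 measured 119, 301 and 229.9 CPM without ozone and 122, 128 and 99.7 CPM with it, and in wrky75 126, 208 and 179.8 CPM without and 129, 107 and 86.6 CPM with it. In control, replicate 1 was the lowest library of each genotype and replicate 2 the highest. LHCB4.3 changed on the log2 scale by −0.77 ± 0.25 (SE; adjusted p = 0.0116) in Col-0, −0.89 ± 0.29 (SE; adjusted p = 0.0126) in wrky25 wrky33 and −0.67 ± 0.29 (SE; adjusted p = 0.0493) in wrky75. The call in wrky75 was lost in 17 of 27 alternatives, with adjusted p = 0.0828 in DESeq2 and up to 0.173 in edgeR without wrky75 control replicate 2, and that in wrky25 wrky33 was lost without its control replicate 2 (adjusted p = 0.101) and without its ozone replicate 3 (adjusted p = 0.0538). LHCB4.1 had the smallest change of this antenna in Col-0, −0.68 ± 0.21 (SE; adjusted p = 0.00775), with 5179, 3993, 4684 and 2802 CPM unexposed and 3206, 2156, 1932 and 3091 CPM after ozone in Col-0. Its control replicate 4 lay below ozone replicates 1 and 4. The other LHCB1 copies LHCB1.1, LHCB1.2 and LHCB1.5 changed on the log2 scale by −1.28 ± 0.28, −1.04 ± 0.32 and −1.03 ± 0.22 (SE) in Col-0, and LHCB2.1, LHCB2.2 and LHCB4.2 by −1.44 ± 0.23, −1.61 ± 0.24 and −1.58 ± 0.25 (SE). LHCB3, LHCB5 and LHCB6, each encoded by 1 gene, changed on the log2 scale by −1.20 ± 0.24, −1.09 ± 0.21 and −1.18 ± 0.24 (SE) in Col-0.

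Among the subunits of the photosystem I core, PSAF, which with PSAN takes part in the docking of plastocyanin, had the highest level per length in Col-0 control (4520.1 CPM per kb). In Col-0, PSAF held 5136, 3744, 4316 and 3998 CPM without ozone and 2755, 2073, 1792 and 2991 CPM with ozone, without overlap, and its log2 fold change was −0.84 ± 0.18 (SE; adjusted p = 0.000576). PSAD and PSAE lie on the stromal side, where ferredoxin docks, and each is encoded by a pair of genes. PSAD2 changed most in Col-0. PSAD2 measured 1506, 1222, 1337 and 1466 CPM in the unexposed Col-0 libraries, and 589, 268, 251 and 688 CPM after ozone. PSAD2 changed on the log2 scale by −1.62 ± 0.28 (SE; adjusted p = 4.45e-05) in Col-0, −1.49 ± 0.32 (SE; adjusted p = 0.000506) in wrky25 wrky33 and −1.80 ± 0.32 (SE; adjusted p = 7.69e-05) in wrky75.

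PSAE2 had the smallest change of all 50 genes in Col-0. Levels of PSAE2 in Col-0 were 441, 329, 395 and 295 CPM (no ozone) and 294, 266, 224 and 324 CPM (ozone). Ozone replicate 4 lay above control replicate 4, and the log2 fold change was −0.40 ± 0.14 (SE; adjusted p = 0.0167). The call was lost with only the libraries of Col-0 in the fit (adjusted p = 0.0647), without Col-0 control replicate 1 (0.0756) and without Col-0 ozone replicate 3 (0.064). In the mutants the groups did not overlap, and PSAE2 changed on the log2 scale by −0.66 ± 0.16 (SE; adjusted p = 0.00154) in wrky25 wrky33 and −0.64 ± 0.16 (SE; adjusted p = 0.00192) in wrky75. PSAG, PSAK, PSAL and PSAO, which lie at the edge of the core where antenna proteins bind, changed on the log2 scale by −0.79 ± 0.21, −0.75 ± 0.16, −0.77 ± 0.16 and −0.91 ± 0.21 (SE) in Col-0, and PSAN by −0.91 ± 0.18 (SE). PSAD1 and PSAE1 changed on the log2 scale by −1.28 ± 0.23 and −0.81 ± 0.19 (SE) in Col-0.

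In photosystem II, PSBO1, PSBO2, PSBP1, PSBQ1 and PSBQ2 are the lumen proteins that stabilise the water-splitting manganese cluster. PSBO1 had the highest level per length of the photosystem II subunits in Col-0 control (4413 CPM per kb), just above PSBR (4403 CPM per kb), a difference that does not exceed their spread. In Col-0, PSBO1 held 6368, 4902, 5524 and 5167 CPM without ozone and 3428, 2282, 2019 and 3411 CPM with ozone, and its log2 fold change was −0.98 ± 0.20 (SE; adjusted p = 0.000253). PSBY, a small membrane subunit, changed most in Col-0, with a log2 change of −1.36 ± 0.25 (SE; adjusted p = 9.69e-05). PSBY measured 1668, 1385, 1514 and 1462 CPM in the unexposed Col-0 libraries, and 793, 419.5, 391 and 752 CPM after ozone. PSBR, a lumen-exposed subunit, changed least in each genotype, in Col-0 by −0.54 ± 0.14 (SE; adjusted p = 0.00168). Levels of PSBR in Col-0 were 3151, 3229, 3174 and 3126 CPM (no ozone) and 2302, 2051, 1673 and 2684 CPM (ozone). The other lumen proteins PSBO2, PSBP1, PSBQ1 and PSBQ2 changed on the log2 scale by −1.27 ± 0.19, −1.05 ± 0.22, −1.11 ± 0.21 and −0.91 ± 0.20 (SE) in Col-0, and the small membrane subunits PSBW and PSBX by −0.89 ± 0.21 and −0.97 ± 0.23 (SE). In wrky25 wrky33 PSBO2 changed most, by −1.53 ± 0.22 against −1.35 ± 0.29 (SE) for PSBY. None of the 10 genes had overlapping groups in any genotype. All ozone libraries lay below all control libraries for 30% of all genes tested in Col-0, 38.2% in wrky25 wrky33 and 38.8% in wrky75. PSBS, the protein needed for the fast part of non-photochemical quenching, stood at 2395, 2590.4, 2593 and 2525 CPM unexposed and 1983, 1247, 1156 and 1753 CPM after ozone in Col-0, and changed on the log2 scale by −0.72 ± 0.19 (SE; adjusted p = 0.00218) in Col-0, −0.96 ± 0.21 (SE; adjusted p = 0.000777) in wrky25 wrky33 and −0.89 ± 0.21 (SE; adjusted p = 0.00129) in wrky75.

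Of the electron carriers, PETC (AT4G03280, chromosome 4, 1440146 to 1441863, plus strand) changed least. In Col-0, PETC held 1732, 1741, 1746 and 1544 CPM without ozone and 1411, 1148, 987 and 1348 CPM with ozone. The control libraries were close to each other except replicate 4, and the groups did not overlap. PETC in wrky25 wrky33 measured 1701, 1968 and 1886 CPM without ozone and 1302, 1202 and 1104 CPM with it, and in wrky75 1771, 1770.5 and 1839 CPM without and 1389, 1195 and 1059 CPM with it. PETC changed on the log2 scale by −0.47 ± 0.12 (SE; adjusted p = 0.00277) in Col-0, −0.62 ± 0.14 (SE; adjusted p = 0.000991) in wrky25 wrky33 and −0.56 ± 0.14 (SE; adjusted p = 0.00209) in wrky75. The plastocyanin genes differed in level, with 4099.8 CPM per kb of PETE2 and 269 CPM per kb of PETE1 in Col-0 control. PETE1 held 242, 194, 217 and 186 CPM unexposed and 101, 57.3, 51.5 and 104 CPM after ozone in Col-0, and changed on the log2 scale by −1.42 ± 0.21 (SE; adjusted p = 1.24e-05). PETE2 held 4253, 3875, 3960.3 and 3245 CPM unexposed and 2599, 1583, 1427 and 2473 CPM after ozone in Col-0, and changed on the log2 scale by −0.92 ± 0.20 (SE; adjusted p = 0.000499).

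RBCS1A (AT1G67090, chromosome 1, 25048158 to 25049424, minus strand) had the highest level per length of the 50 genes in Col-0 with and without ozone, 17609.9 CPM per kb in control and 10068 CPM per kb under ozone. RBCS1A measured 19820.1, 18343, 19378 and 14659 CPM in the unexposed Col-0 libraries, and 13916, 8714, 7679 and 10972 CPM after ozone. Control replicate 4 came close to ozone replicate 1 without overlap. RBCS1A in wrky25 wrky33 measured 18661, 19595 and 20315 CPM without ozone and 12480.5, 8925 and 8706 CPM with it, and in wrky75 19144, 16956 and 19748 CPM without and 13706, 8692 and 8258 CPM with it. RBCS1A changed on the log2 scale by −0.81 ± 0.21 (SE; adjusted p = 0.00237) in Col-0, −0.96 ± 0.24 (SE; adjusted p = 0.00215) in wrky25 wrky33 and −0.87 ± 0.24 (SE; adjusted p = 0.00429) in wrky75. RCA (AT2G39730, chromosome 2, 16570746 to 16573548, minus strand) ranked in place 3 per length in Col-0 control and in place 9 under ozone. Levels of RCA in Col-0 were 14503, 14144, 14022 and 12025 CPM (no ozone) and 7072, 3966, 3261 and 7136 CPM (ozone). Ozone replicates 2 and 3 were the lowest in each genotype, and RCA in wrky25 wrky33 measured 14325, 15606 and 15632 CPM without ozone and 6076, 4711 and 4252 CPM with it, and in wrky75 14296, 12380.1 and 14749 CPM without and 6550.2, 3709 and 3403 CPM with it. RCA changed on the log2 scale by −1.35 ± 0.25 (SE; adjusted p = 0.000109) in Col-0, −1.60 ± 0.29 (SE; adjusted p = 0.000112) in wrky25 wrky33 and −1.60 ± 0.29 (SE; adjusted p = 9.74e-05) in wrky75.

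The other small-subunit genes lie in tandem on the minus strand of chromosome 5, in the order RBCS3B (15377173 to 15378416), RBCS2B (15380945 to 15382035) and RBCS1B (15384117 to 15385247), and their changes differed in size. In Col-0, RBCS3B held 6072, 5817, 5934 and 4568 CPM without ozone and 4844, 3365, 3045 and 4093 CPM with ozone. Ozone replicate 1 lay above control replicate 4, and RBCS3B changed on the log2 scale by −0.55 ± 0.17 (SE; adjusted p = 0.00823) in Col-0, −0.72 ± 0.20 (SE; adjusted p = 0.0035) in wrky25 wrky33 and −0.67 ± 0.20 (SE; adjusted p = 0.00554) in wrky75. RBCS2B measured 2405, 2949, 2671 and 2057 CPM in the unexposed Col-0 libraries, and 1591, 911, 759 and 1397 CPM after ozone, without overlap, and RBCS2B changed on the log2 scale by −1.11 ± 0.24 (SE; adjusted p = 0.000404). Levels of RBCS1B in Col-0 were 1445, 1712, 1649 and 646 CPM (no ozone) and 919.9, 318, 275 and 496 CPM (ozone). Control replicate 4 was again low and lay below ozone replicate 1, and RBCS1B changed on the log2 scale by −1.44 ± 0.42 (SE; adjusted p = 0.00503) in Col-0, −1.90 ± 0.49 (SE; adjusted p = 0.00234) in wrky25 wrky33 and −1.81 ± 0.49 (SE; adjusted p = 0.0031) in wrky75. In all 3 genotypes the order of the fitted changes was RBCS1B, RBCS2B, RBCS1A and RBCS3B, from most to least lowered. The difference between the genes was not tested.

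**Figure D3:**
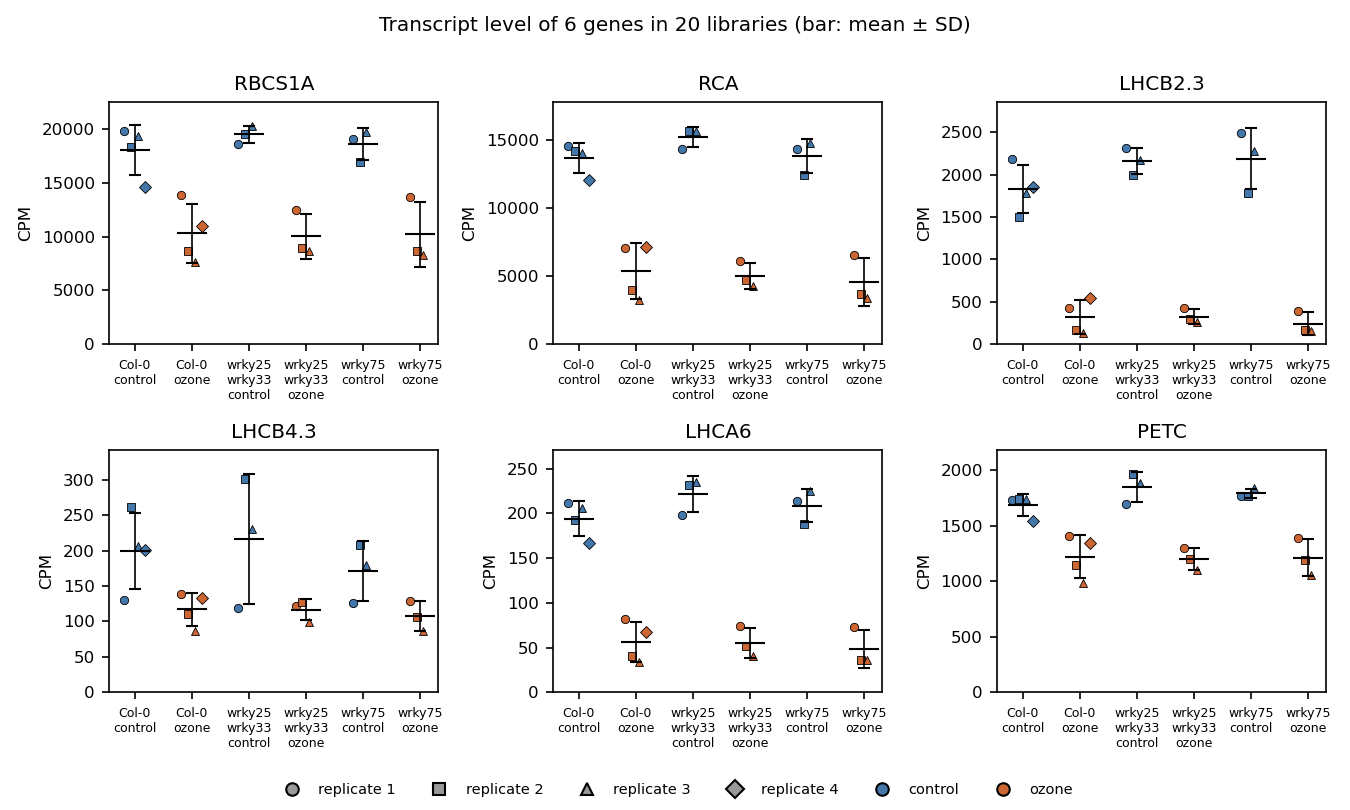
Levels of RBCS1A, RCA, LHCB2.3, LHCB4.3, LHCA6 and PETC (CPM, vertical axes from 0) in the 20 libraries, with the mean ± SD of each group as bars. LHCB2.3 and LHCA6 fell furthest, PETC least, and LHCB4.3 had overlapping groups, with control replicate 1 at 119.3 to 130.5 CPM in the 3 genotypes.

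The 10 multi-copy families hold 27 of the genes, and copies of a family differed in their share of the family's counts between control and ozone. LHCB2.3 made up 26.6% to 34.5% of LHCB2 counts in Col-0 control libraries and 13.1% to 19.8% under ozone, 29.4% to 31.6% and 13.1% to 17.6% in wrky25 wrky33, and 31% to 32.4% and 12.3% to 19.8% in wrky75. The share of LHCB4.2 in LHCB4 counts was 37% to 42.8% in control and 20.3% to 32.5% under ozone in Col-0, and that of LHCB4.1 was 53.4% to 61.5% in control and 64.8% to 76.3% under ozone. The share of PSAH1, a copy of a subunit at which LHCII docks in state transitions, was 30.9% to 33.8% in control and 40.5% to 50.9% under ozone in Col-0, 30.8% to 31.5% in control and 41.4% to 46.1% under ozone in wrky25 wrky33 and 28.8% to 30.8% in control and 43.4% to 48.8% under ozone in wrky75. The log2 fold changes in Col-0 were −0.54 ± 0.11 for PSAH1 and −1.30 ± 0.19 (SE) for PSAH2.

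In the LHCB1 family, the share of LHCB1.3 was 36.2% to 38.3% in control and 41.9% to 45.98% under ozone in Col-0, that of LHCB1.4 was 3.52% to 7.10% in control and 1.74% to 3.35% under ozone, and LHCB1.1 and LHCB1.5 had overlapping ranges in all genotypes. PSAD2 made up 31.7% to 35.6% in control and 24.4% to 31% of PSAD counts under ozone, PSAE2 16.3% to 19.6% in control and 20.98% to 26.2% of PSAE counts under ozone, and PETE1 4.77% to 5.43% in control and 3.48% to 4.05% of PETE counts under ozone. The share of RBCS1A was 63.6% to 66.8% in control and 64.7% to 65.5% under ozone, and that of RBCS3B was 20.03% to 20.8% in control and 22.8% to 25.9% under ozone. In 8 of the 10 families at least 1 copy moved in the same direction without overlap in all 3 genotypes, the exceptions being PSBO and PSBQ. The shares carry no test, and no rate of such shifts among other gene families was computed. With the copies summed, 10 of 10 families were called lower under ozone in each genotype. Of single genes tested, 36.4% were called lower in Col-0, 33.9% in wrky25 wrky33 and 36.1% in wrky75. In Col-0 the changes ran from −0.72 ± 0.18 (SE; adjusted p = 0.00134) for PSAE to −1.75 ± 0.26 (SE; adjusted p = 9.93e-06) for LHCB2. These sums are made of genes already called lower singly, so they are no separate evidence.

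Some copies are nearly identical, and their split depends on how reads with several matches were counted, not given in the sources used here. The coding sequences of LHCB1.1, LHCB1.2 and LHCB1.3 are 95.6% to 96.4% identical, those of LHCB2.1 and LHCB2.2 96.6%, and those of RBCS1B, RBCS2B and RBCS3B 96.7% to 97.3% (RefSeq, TAIR10.1). LHCB2.3 is 84.4% to 85.5% identical to the other LHCB2 copies, PSAH1 and PSAH2 87.0%, and LHCB4.1 and LHCB4.2 81.1%. Levels of single LHCB1 and RBCS genes are therefore less certain than their sums. The library kit does not mark strand, and 9 of the 50 genes overlap a gene on the opposite strand, by 4 to 266 bases. These neighbours held at most 35.6 CPM in Col-0 control.

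**Figure D4:**
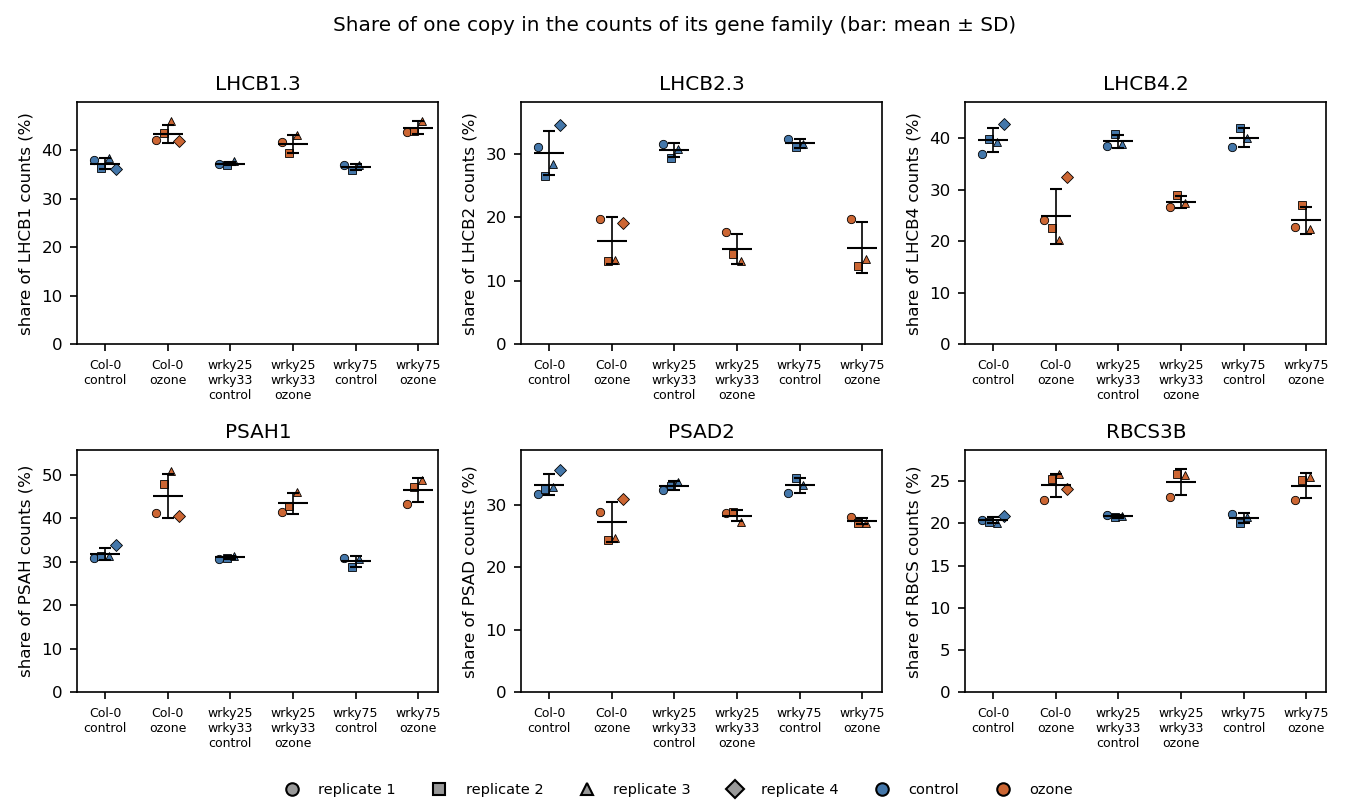
Share of 1 copy in the summed counts of its family (percent, vertical axes from 0) in the 20 libraries, with the mean ± SD of each group. Control and ozone libraries are apart in all 3 genotypes for the 6 copies drawn, with lower shares of LHCB2.3, LHCB4.2 and PSAD2 and higher shares of LHCB1.3, PSAH1 and RBCS3B under ozone. The 6 are among the 16 of 27 copies for which this held, and do not stand for the rest. Shares within a family are not independent. In a family with a pair of copies, a lower share of either is a higher share of the other, and both are counted.

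The 250 bases before the annotated start of each gene were read from the TAIR10 sequence and searched on both strands. The windows shown are those of neighbouring or related copies whose changes differed in size. LHCB1.4 and LHCB1.5 are divergent neighbours on chromosome 2, their starts at 14524756 (plus strand) and 14523568 (minus strand), with log2 fold changes of −2.02 ± 0.48 and −1.03 ± 0.22 (SE) in Col-0. RBCS1B and RBCS3B are tandem copies, LHCB2.1 (−1.44 ± 0.23, SE) and LHCB2.3 (−2.53 ± 0.39, SE) are related copies on different chromosomes, and RBCS1A had the highest level per length. Capitals mark the G-box (CACGTG), bound by bZIP and bHLH factors, the I-box (GATAAG) of light-responsive promoters, the CCAATC motif described for GLK factors, and the CCA1 site (AAAAATCT) on either strand.
RBCS1A: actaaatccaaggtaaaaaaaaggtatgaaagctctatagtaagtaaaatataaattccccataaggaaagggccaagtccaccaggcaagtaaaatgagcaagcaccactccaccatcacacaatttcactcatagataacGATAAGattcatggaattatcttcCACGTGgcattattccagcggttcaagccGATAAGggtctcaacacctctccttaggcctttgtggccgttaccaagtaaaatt
RBCS1B: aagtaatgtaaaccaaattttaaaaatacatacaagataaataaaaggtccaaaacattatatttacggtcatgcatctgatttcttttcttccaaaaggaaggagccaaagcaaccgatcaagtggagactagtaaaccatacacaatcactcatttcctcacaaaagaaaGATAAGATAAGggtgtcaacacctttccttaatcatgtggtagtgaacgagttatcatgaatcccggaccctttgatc
RBCS3B: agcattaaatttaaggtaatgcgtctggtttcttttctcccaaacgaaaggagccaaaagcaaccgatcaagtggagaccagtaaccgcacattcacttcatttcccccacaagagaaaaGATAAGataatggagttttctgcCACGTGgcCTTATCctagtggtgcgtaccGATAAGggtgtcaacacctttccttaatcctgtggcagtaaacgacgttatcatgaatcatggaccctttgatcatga
LHCB1.4: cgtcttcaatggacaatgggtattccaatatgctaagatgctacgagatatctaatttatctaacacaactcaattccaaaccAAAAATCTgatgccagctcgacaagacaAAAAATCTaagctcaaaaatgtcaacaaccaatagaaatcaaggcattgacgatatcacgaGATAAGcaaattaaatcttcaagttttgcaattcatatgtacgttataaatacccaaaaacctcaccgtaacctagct
LHCB1.5: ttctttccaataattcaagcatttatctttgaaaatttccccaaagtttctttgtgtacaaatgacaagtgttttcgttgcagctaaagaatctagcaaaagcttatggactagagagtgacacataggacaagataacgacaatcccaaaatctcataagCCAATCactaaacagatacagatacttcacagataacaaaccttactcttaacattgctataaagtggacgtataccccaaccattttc
LHCB2.1: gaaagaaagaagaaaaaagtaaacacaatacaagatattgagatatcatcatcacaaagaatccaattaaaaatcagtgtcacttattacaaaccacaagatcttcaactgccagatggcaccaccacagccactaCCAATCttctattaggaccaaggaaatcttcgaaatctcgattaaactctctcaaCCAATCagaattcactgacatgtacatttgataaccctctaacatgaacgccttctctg
LHCB2.3: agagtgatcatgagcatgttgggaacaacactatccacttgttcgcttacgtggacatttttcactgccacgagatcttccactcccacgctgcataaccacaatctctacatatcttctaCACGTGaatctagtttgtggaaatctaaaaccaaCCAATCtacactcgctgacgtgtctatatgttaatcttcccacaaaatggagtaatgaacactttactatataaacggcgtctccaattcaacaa

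In order, these windows lie at chr1:25049425-25049674 (minus strand), chr5:15385248-15385497 (minus strand), chr5:15378417-15378666 (minus strand), chr2:14524506-14524755 (plus strand), chr2:14523569-14523818 (minus strand), chr2:1824426-1824675 (minus strand) and chr3:10255697-10255946 (plus strand) in TAIR10. RBCS1A and RBCS3B hold a G-box flanked by I-boxes, with the G-box at 84 and 107 bases before the start. RBCS1B holds 2 I-boxes that share a base and no G-box. RBCS2B, the tandem copy between RBCS1B and RBCS3B, is not drawn. It holds 1 G-box and 3 I-boxes, as RBCS3B does, and its log2 fold change in Col-0 was −1.11 ± 0.24 (SE). LHCB1.4 holds 2 CCA1 sites and an I-box, and LHCB1.5 a CCAATC motif alone. LHCB2.1 holds 2 CCAATC motifs, and LHCB2.3 has 1 and a G-box. LHCB2.2, not drawn, holds 1 CCAATC motif and no G-box, and changed by −1.61 ± 0.245 (SE) in Col-0. A G-box was present before 21 of the 50 genes (42%) and before 7.73% of 26699 protein-coding genes with a window of the same length. An I-box was found for 27 (54%; 12.8% of all) and CCAATC for 23 (46%; 11% of all). A CCA1 site, searched only as AAAAATCT, was found for 8 (16%; 6.57% of all). The W-box, the site of WRKY factors, searched as TTGACC or TTGACT, was found for 9 (18%; 28.9% of all), and the evening element (AAAATATCT) for 0 (2.3% of all). Genes with and without each motif had median log2 fold changes in Col-0 of −0.98 and −1.04 for the G-box, −0.98 and −1.04 for the I-box, −1.10 and −0.91 for CCAATC, and −0.91 and −1.05 for the W-box. These matches describe letters in these windows and carry no test.

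The libraries labelled wrky25 wrky33 and wrky75 were compared with those of Col-0, without ozone, under ozone and in the response to ozone. No call was made for any of the 50 genes. Without ozone, 0 of 50 differed between wrky25 wrky33 and Col-0 (0.0251% of all genes tested were called) and 0 between wrky75 and Col-0 (0.0251%). Under ozone, 0 differed in wrky25 wrky33 (5.33%) and 0 in wrky75 (0.0251%). The ozone response differed for 0 genes in wrky25 wrky33 (0.957%) and for 0 in wrky75 (0%). In all 6 comparisons 0 of the 50 had an unadjusted p under 0.05 with edgeR, a level reached by 3.42%, 4.67%, 15.4%, 1.67%, 9.07% and 1.75% of all genes tested, in the same order. DESeq2 made 0 calls and found 0 with an unadjusted p under 0.05. With the replicate number as a block the calls also numbered 0, with 1 gene at an unadjusted p under 0.05 in wrky25 wrky33 against Col-0 under ozone, where the block raised the calls over all genes from 1064 to 2394 (from 191 to 618 for the difference in response).

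The fitted differences give the size that these libraries leave. They and their SEs come from the fit without the replicate block, which takes same-numbered libraries as independent. SEs with the block are not given here. Without ozone the median log2 difference of the 50 genes was 0.16 in wrky25 wrky33 (range 0.07 to 0.34) and 0.11 in wrky75 (range −0.22 to 0.45), with a median SE of 0.23 in both. Under ozone it was −0.0047 in wrky25 wrky33 (range −0.30 to 0.33) and −0.14 in wrky75 (range −0.41 to −0.01), again with a median SE of 0.23. The ozone response differed from that of Col-0 by a median of −0.16 in wrky25 wrky33 (range −0.46 to 0.14) and of −0.26 in wrky75 (range −0.74 to 0.10), with a median SE of 0.32 in both. The 2 differences share the Col-0 libraries. Across the 50 genes the log2 fold changes of Col-0 and wrky25 wrky33 had a Pearson correlation of 0.963 (Spearman 0.957), those of Col-0 and wrky75 0.98 (0.977) and those of the mutants 0.965 (0.957). Each response has libraries of its own, but same-numbered ozone libraries deviated together from their group means. Over all genes tested these deviations correlated by 0.31 to 0.58 for Col-0 with wrky25 wrky33 and 0.47 to 0.68 for Col-0 with wrky75. For the 2 mutants it was 0.35 to 0.59. The part of this in the likeness of the responses was not tested. The level per length in Col-0 control and the change in Col-0 had a Spearman correlation of 0.124 over the 50 genes, whose libraries are the same on both axes.

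Other genes of photosynthesis were examined as lists in the same fit. Of all genes tested, 36.4% were called lower in Col-0, 33.9% in wrky25 wrky33 and 36.1% in wrky75. All 16 listed genes of the Calvin-Benson cycle were lower under ozone in each genotype, with medians of −1.05 in Col-0, −1.28 in wrky25 wrky33 and −1.15 in wrky75. In Col-0 the largest changes were those of FBA1, a plastid aldolase (−1.89 ± 0.32 (SE; adjusted p = 3.44e-05)), PRK, phosphoribulokinase (−1.81 ± 0.24 (SE; adjusted p = 3.33e-06)), and GAPA2, a subunit of glyceraldehyde-3-phosphate dehydrogenase (−1.45 ± 0.27 (SE; adjusted p = 0.000107)). All 10 listed genes of ferredoxin, ferredoxin-NADP reductase, cyclic electron flow, cytochrome b6f and ATP synthase were lower in each genotype (median −0.99 in Col-0), led by the ferredoxin gene FD1 (−1.54 ± 0.24 (SE; adjusted p = 1.6e-05)) and the ATP synthase subunit ATPD (−1.52 ± 0.23 (SE; adjusted p = 9.26e-06)). The 5 genes of import into the thylakoid were all lower (median −0.99), with CPSRP43, the chaperone of antenna proteins, at −1.501 ± 0.17 (SE; adjusted p = 3.99e-07). The 6 genes of photosystem assembly and further lumen proteins were all lower (median −0.94), with PSBP2 at −1.94 ± 0.26 (SE; adjusted p = 2.39e-06).

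Enzymes that regulate light harvesting fell as well, 5 of 5 in each genotype with a median of −1.40 in Col-0. The shares of all genes called lower were 36.4% in Col-0, 33.9% in wrky25 wrky33 and 36.1% in wrky75. Among them were the xanthophyll cycle enzymes ZEP (−1.80 ± 0.21 (SE; adjusted p = 6.87e-07)) and NPQ1 (−1.64 ± 0.28 (SE; adjusted p = 4.04e-05)) and the kinase STN8, which phosphorylates photosystem II core proteins (−1.40 ± 0.19 (SE; adjusted p = 3.02e-06)). Of the 9 listed antenna-like proteins 8 were lower in Col-0 and 7 in each mutant. The early light-induced genes were the exceptions. In Col-0 SEP2 changed by −1.77 ± 0.25 (SE; adjusted p = 5.9e-06) and LHCB7 by −1.43 ± 0.22 (SE; adjusted p = 1.46e-05). ELIP2 held 3.06, 30.6, 12.4 and 4.23 CPM unexposed and 8.46, 6.79, 6.76 and 3.39 CPM after ozone in Col-0, and ELIP1 8.43, 75.7, 27.4 and 56.2 CPM unexposed and 14.6, 7.62, 8.04 and 16.1 CPM after ozone. Their control libraries spread over a wide range, with replicate 1 low and replicate 2 high. ELIP2 was called in no genotype (−0.98 ± 0.74 (SE; adjusted p = 0.25) in Col-0), and ELIP1 was called in Col-0 (−1.86 ± 0.66 (SE; adjusted p = 0.0184)) but not in wrky25 wrky33 (adjusted p = 0.0707) or wrky75 (adjusted p = 0.0563).

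Of 14 listed regulators of photosynthesis genes, 13 were tested, ABI4 being left out by the filter on low counts. In Col-0 12 were lower and 1 higher (36.4% and 33.3% of all genes tested were called so). The sigma factors direct the plastid RNA polymerase, and SIG4 changed most of the list. In Col-0, SIG4 held 27.4, 29.6, 26.2 and 35.4 CPM without ozone and 8.22, 3.17, 2.65 and 6.84 CPM with ozone, and its log2 fold change was −2.51 ± 0.27 (SE; adjusted p = 2.11e-07). GNC, a GATA factor of chlorophyll synthesis and greening, held 48.6, 47.5, 40.2 and 55.0 CPM unexposed and 9.98, 8.84, 9.69 and 12.9 CPM after ozone in Col-0 (−2.21 ± 0.14 (SE; adjusted p = 2.01e-10)). GLK1 and GLK2, activators of antenna and chlorophyll genes, changed on the log2 scale by −1.03 ± 0.14 (SE; adjusted p = 4.03e-06) and −1.85 ± 0.15 (SE; adjusted p = 6.23e-09). HYH, a bZIP factor related to HY5, was the gene that rose. HYH measured 9.53, 27.1, 19.1 and 15.1 CPM in the unexposed Col-0 libraries, and 46.6, 47.9, 48.6 and 37.9 CPM after ozone, without overlap, and HYH changed by 1.35 ± 0.29 (SE; adjusted p = 0.000476) in Col-0, 1.55 ± 0.34 (SE; adjusted p = 0.000605) in wrky25 wrky33 and 1.46 ± 0.34 (SE; adjusted p = 0.000936) in wrky75. HY5 itself fell in Col-0 (−0.55 ± 0.23 (SE; adjusted p = 0.0403)) and wrky75 (−0.61 ± 0.27 (SE; adjusted p = 0.0496)) and was not called in wrky25 wrky33 (adjusted p = 0.0827). In wrky25 wrky33 against Col-0 under ozone 1 of the 13 regulators was called, a count near the 5.33% called of all genes tested. This was GNC, which was higher in wrky25 wrky33 than in Col-0 under ozone (13.7, 15.3 and 16.8 CPM against 9.98, 8.84, 9.69 and 12.9 CPM), by a log2 difference of 0.56 ± 0.15 (SE; adjusted p = 0.0313).

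**Figure D5:**
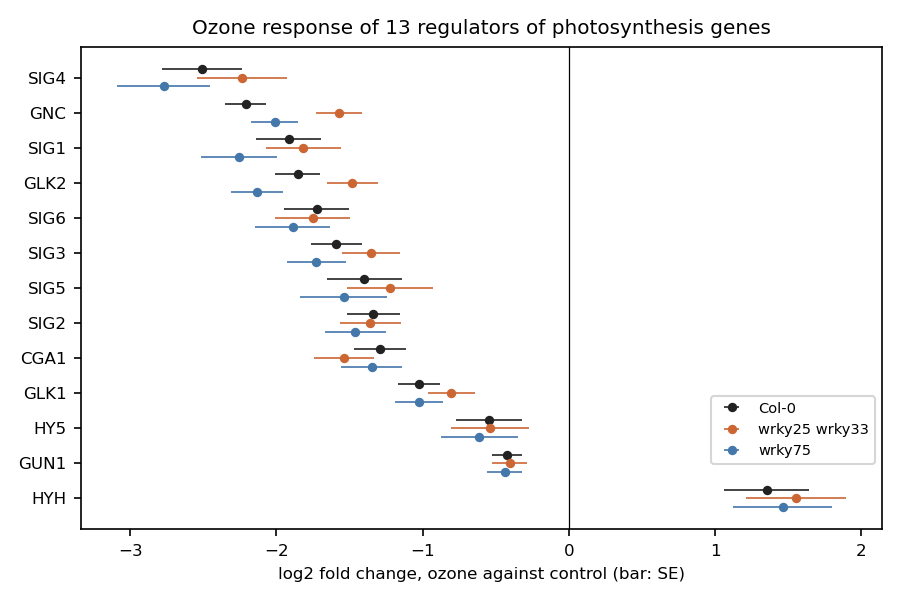
Log2 fold change, ozone against control, of the 13 regulators tested, in Col-0 (black), wrky25 wrky33 (orange) and wrky75 (blue), with bars of 1 SE from edgeR. SIG4 lies lowest and HYH is the 1 regulator to the right of 0, in all 3 genotypes.

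Markers of cell types that a rosette holds moved in part with these genes. A lower level was called for 36.4% of all genes tested in Col-0, 33.9% in wrky25 wrky33 and 36.1% in wrky75. The 3 epidermis markers (ATML1, FDH and CUT1) were lower in each genotype, their summed level going from 558 to 667 CPM in Col-0 control to 191 to 368 CPM under ozone, with log2 fold changes of −1.03 ± 0.10, −1.32 ± 0.13 and −1.27 ± 0.20 (SE) in Col-0. Their median was −1.27 in Col-0, −0.87 in wrky25 wrky33 and −1.47 in wrky75. In wrky25 wrky33 against Col-0 under ozone 1 of the 3 was called (5.33% of all genes tested were). This was ATML1, higher in wrky25 wrky33 by a log2 difference of 0.38 ± 0.11 (SE; adjusted p = 0.0461). Of the 3 guard cell markers, MYB60 was lower in each genotype, KAT1 was lower in Col-0 and not called in the mutants, and FAMA was called in none, with Col-0 sums of 55.1 to 79.3 CPM in control and 43.6 to 60.2 CPM under ozone. The 3 markers of phloem and xylem (SUC2, APL and IRX3) were not called in Col-0, with sums of 218 to 267 CPM in control and 238 to 285 CPM under ozone. In wrky25 wrky33 SUC2 was lower (−0.31 ± 0.13, SE; adjusted p = 0.0407) and the other two were not called, and in wrky75 none of the 3 was called (adjusted p from 0.276 to 0.51). Of the flower markers 1 of 3 passed the filter, AG, which was lower, at sums of at most 2.96 CPM. Seed markers summed to at most 0.151 CPM, with CRU3 at 0 in every library, and of the 4 root markers 1, PYK10, passed the filter and was not called. The part of cell composition in the lower levels of the 50 genes was not tested.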

How the data were processed

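RNA of 20 rosette libraries in 6 groups was measured, with groups and replicate numbers taken from the labels. The authors deposited raw counts of reads per gene. The submitters' processing notes name FastQC, TopHat2, SAMtools and HTSeq as tools and TAIR10 as build. Their versions and settings, and how reads with several matches were treated, are not stated in these sources, and the TruSeq v2 kit named in the labels does not mark strand. Counts were analysed with edgeR 4.0.16 (limma 3.58.1, R 4.3.3). Genes were filtered with filterByExpr, scaled with TMM, and fitted in 1 quasi-likelihood model of 6 group means over all 20 libraries. The 9 comparisons had Benjamini-Hochberg adjustment over 19954 genes, at a threshold of 0.05. DESeq2 1.42.0 was an alternative, beside other scalings, no filter, a replicate block and leaving out libraries.

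The members and gene lists were chosen with earlier results of these data known. The genes named were all RBCS, RCA and carrier genes, in each other complex those of the highest level per length in Col-0 control and of the largest and smallest change, and up to 3 called genes with the largest changes of each list. Genes named outside that rule, such as PSAH1, LHCB1.5, PSBS, ELIP2, GLK1 and HY5, were chosen after their values were seen. Levels per kb divide mean CPM by exon length (RefSeq, TAIR10.1, within the deposited gene ends). Coordinates are the deposited TAIR10 gene ends, 1-based, and windows of 250 bases before each start were read from the RefSeq sequence with Biopython 1.88 in Python 3.11.15.

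Same-numbered libraries share a number in the labels. Their deviations from the group means correlated by more than 0.1 in every pair for Col-0 control with ozone (0.11 to 0.38), for Col-0 with wrky25 wrky33 in control (0.18 to 0.47) and under ozone (0.31 to 0.58), and for Col-0 with wrky75 under ozone (0.47 to 0.68), but not for Col-0 with wrky75 in control (lowest 0.094) or for control with ozone within either mutant.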

Additional observations from a re-analysis of the deposited data

Results flagged for a closer look

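Col-0 control replicate 4 stood apart from the other 3 control libraries, with a gap above the critical value for 4 samples, for RBCS3B (4567.9 CPM), for PETC (1544.3 CPM) and for the summed Rubisco and activase transcripts (33953.9 CPM), and was the lowest library in each. These were 3 of 114 groups of 4 examined, and chance gives such a gap in about 1 in 20 groups.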

How the results depend on the processing

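Each result was recomputed under 27 alternatives. Under all of them 49 or 50 of the 50 genes were lower under ozone in each genotype, 0 were higher, 0 were called in the 6 comparisons with mutants, and all 10 summed families were lower. Of 4050 single-gene values under alternatives, 4028 kept their direction and call, 22 kept the direction and lost the call (PSAE2 in Col-0, LHCB4.3 in the mutants), and 0 reversed. The medians moved by more than the spread between libraries only on leaving out wrky75 ozone replicate 1. Over the left-out libraries the median response in wrky75 ran from −1.54 to −1.16, that of wrky75 against Col-0 under ozone from −0.38 to 0.0079, and that of the difference in response between wrky75 and Col-0 from −0.53 to −0.046. The cause was not tested. Without ozone the median difference from Col-0 ran from 0.10 to 0.22 in wrky25 wrky33 and from 0.056 to 0.20 in wrky75, lowest in both without Col-0 control replicate 4 and highest without Col-0 control replicate 1 (wrky25 wrky33) or wrky75 control replicate 2 (wrky75). In Col-0 the median response ran from −1.21 to −0.87, and in wrky25 wrky33 from −1.27 to −1.10. The median of wrky25 wrky33 against Col-0 under ozone changed sign, between −0.14 and 0.14, and that of its difference in response ran from −0.31 to 0.01. The replicate block changed no call among the 50 genes, with 50 lower in each genotype.

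Total counts were close to equal in all libraries (20486137 to 20771667), for which these sources name no step. The median SE of the 50 genes was 0.32 for differences in response, in the fit without the replicate block. Relative levels do not show the total amount of RNA per cell.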
